A study of Mus musculus with 64 samples.

Results

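The loop examined here comprises 6 genes of the 55401 in the deposited table: Arntl, which encodes BMAL1, its partners Clock and Npas2, the REV-ERB genes Nr1d1 and Nr1d2, and Rora. They were taken by name as the members of the positive arm of the molecular clock and of the nuclear receptors that regulate it, and all 6 were among the 15241 genes with enough counts to test. BMAL1 pairs with CLOCK or with its paralog NPAS2 and activates genes that carry E-box motifs. REV-ERBα (Nr1d1) and REV-ERBβ (Nr1d2) are E-box targets that repress Arntl through ROR response elements, and RORα (Rora) activates at the same elements. In skeletal muscle this loop runs in the fibers themselves and is known for setting the daily timing of genes of glucose and lipid use, and BMAL1 belongs to the same bHLH-PAS family as HIF1α.

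RNA from gastrocnemius, a mixed hindlimb muscle of mostly fast fibers, was sequenced in 64 mice in 8 groups of 8, each with 4 females and 4 males, on a C57BL/6JBomTac background and aged 12 to 18 weeks. Every mouse was homozygous for a floxed Hif1α allele. The HIF1α KO mice also carried 1 copy of an HSA-Cre transgene, driven by the human α-skeletal actin promoter in muscle fibers, so the other cells of the muscle keep an intact gene, and the fl/fl mice carried no Cre. Each mouse ran on a treadmill for 60 min at 16 m/min and 5% incline (exercised) or had a sham session (sedentary). Sessions were held at zeitgeber time (ZT) 3, early in the light rest phase, or ZT15, early in the dark active phase, and muscle was taken 3 h later, so ZT3 and ZT15 name the session and not the hour of collection. After removal of 1 HIF1α KO mouse, exercised at ZT3, whose library held 382 counts, 63 mice remained, 31 at ZT3 and 32 at ZT15.

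The 63 libraries held between 2359780 and 40377963 counts, with a median of 16236352. The summed level of 8 muscle fiber genes (Acta1, Ckm, Myh4 and others) was 88985 to 161080 CPM (counts scaled to a common library size) in every library. Whole-gene Hif1a, the target, was 36.4 ± 6.31 CPM (SD, n = 32) in fl/fl and 36.4 ± 4.80 (n = 31) in HIF1α KO muscle, with a log2 difference of 0.00 (SE 0.0492, adjusted p = 0.979). The loxP sites flank exon 2 only and the count sums the whole gene over all cell types, so this count does not check the genotype. In bulk muscle, fewer cells of a type and less RNA per cell cannot be told apart. Levels are given as CPM after TMM scaling and differences as log2 fold changes from edgeR with their standard errors, called at a Benjamini-Hochberg adjusted p under 0.1 over all 15241 genes.

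The start regions of 3 members, Arntl and the REV-ERB genes Nr1d1 and Nr1d2, are shown with the motif matches they hold. Each is the RefSeq GRCm38.p6 window from 250 bases before to 50 after an annotated start, 5′ to 3′ on the gene's strand, with matches in capitals. The motifs searched on both strands were the E-box CACGTG, the E'-box CACGTT, the ROR half-site AGGTCA, the full ROR element and the D-box by name, and the HIF core ACGTG or GCGTG. The Arntl window lies at chr7:113207261-113207560 on the plus strand, that of Nr1d1 at chr11:98775328-98775627 and that of Nr1d2 at chr14:18239057-18239356, both on the minus strand.
Arntl: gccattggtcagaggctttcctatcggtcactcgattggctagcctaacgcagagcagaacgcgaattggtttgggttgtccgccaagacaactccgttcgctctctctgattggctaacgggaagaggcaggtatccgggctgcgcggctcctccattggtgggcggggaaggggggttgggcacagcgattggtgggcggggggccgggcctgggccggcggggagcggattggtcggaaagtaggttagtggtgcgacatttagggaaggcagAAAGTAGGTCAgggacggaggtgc
Nr1d1: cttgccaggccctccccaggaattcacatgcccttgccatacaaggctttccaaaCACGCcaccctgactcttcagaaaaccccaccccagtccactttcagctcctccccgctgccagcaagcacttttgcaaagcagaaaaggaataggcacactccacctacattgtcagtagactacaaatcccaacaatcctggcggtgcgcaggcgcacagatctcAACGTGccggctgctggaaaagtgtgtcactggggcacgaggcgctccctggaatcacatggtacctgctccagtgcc
Nr1d2: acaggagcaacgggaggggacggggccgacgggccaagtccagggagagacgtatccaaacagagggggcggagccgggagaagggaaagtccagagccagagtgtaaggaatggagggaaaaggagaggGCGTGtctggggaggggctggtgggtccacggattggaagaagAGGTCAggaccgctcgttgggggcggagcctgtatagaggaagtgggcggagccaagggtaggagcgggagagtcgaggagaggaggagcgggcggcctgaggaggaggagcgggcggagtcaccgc
The capitals in Arntl mark a full ROR element, 27 to 37 bases after the start, with the half-site inside it. Arntl has another annotated start, whose window (chr7:113207215-113207514) held no match and ends before the element. Full elements were found in 0.384% of the 32851 windows of all genes and half-sites in 16.3%. In Nr1d1 the first capitals mark a HIF core 195 to 191 bases before the start, and the second mark an E'-box 28 to 23 bases before it, read on the opposite strand, whose last 5 bases are also a HIF core. E'-boxes were found in 4.68% of windows and HIF cores in 43.8%. In Nr1d2 the capitals mark a HIF core and then a ROR half-site, 120 to 116 and 77 to 72 bases before the start. No member window held an E-box, present in 7.15% of windows, or a D-box, present in 1.66%. HIF cores also lay in windows of Clock, Npas2 and Rora, and 1 Clock window held a half-site. These are matches of letters, not measured binding.

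The first comparison asked how the loop differed between the ZT3 and ZT15 sessions. The REV-ERB genes were higher at ZT3, Arntl and Npas2 were higher at ZT15, and Clock and Rora passed no test. Averaged over genotype and exercise, 4 of 6 members were called, 2 higher and 2 lower at ZT15, in a comparison that called 8.02% of all tested genes. The median absolute log2 difference was 0.831 over the 6 members and 0.0817 over all tested genes.

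**Figure D1:**
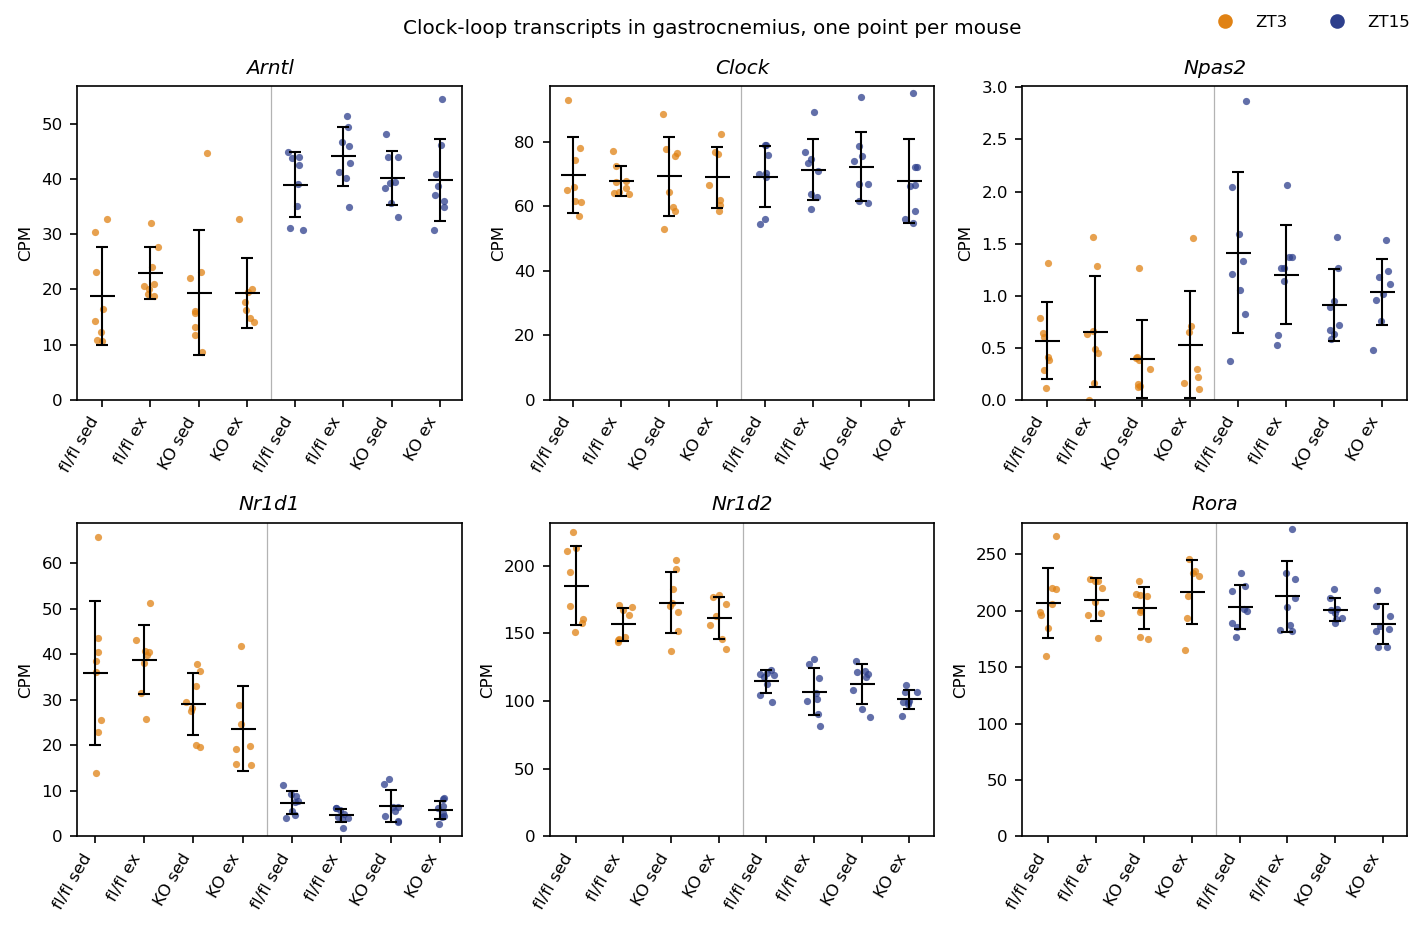
Level of each member in each of the 63 mice (CPM, linear axis), by group; points are mice and bars mark the group mean ± SD. All 31 ZT3 mice lie above all 32 ZT15 mice in Nr1d1 and Nr1d2, Arntl lies mostly the other way, and Clock and Rora overlap across all groups.

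Among the activators, Arntl (ENSMUSG00000055116.8, chr7:113207465-113314126, plus strand) ranged from 8.72 to 44.6 CPM at ZT3, with a median of 19.2. At ZT15 it ranged from 30.7 to 54.5 CPM, with a median of 40.5. The times overlapped through a few ZT3 mice, since 27 of 31 ZT3 mice lay below every ZT15 mouse. The mean was 20.2 ± 8.01 CPM at ZT3 and 40.8 ± 6.00 at ZT15, and the log2 difference was 1.02 (SE 0.105, adjusted p = 7.76e-11), rank 15 of all genes by p. The spread was wider at ZT3, with a coefficient of variation of 39.8% against 14.7% at ZT15. In the fl/fl mice that ran, every ZT15 mouse was above every ZT3 mouse, and in the other combinations the ranges overlapped. The share of all genes that separate in this way was not counted, and the fitted difference of that combination was the smallest of the 4. Arntl was called in each of the 4 combinations of genotype and exercise, by 0.94 (SE 0.208, adjusted p = 0.0123) in exercised fl/fl and by 1.03 (SE 0.216, adjusted p = 0.00804) in exercised HIF1α KO muscle, and the sedentary values lay close to these. Without mice 17 to 32 Arntl stood at 0.89 in sedentary fl/fl (adjusted p = 0.107) and at 0.91 in sedentary HIF1α KO mice (adjusted p = 0.22). It stood at 0.82 in exercised HIF1α KO mice (adjusted p = 0.408), and the call was lost in each of these. The 4 ZT3 mice with the highest Arntl levels were mice 35, 34, 38 and 36, at 44.6, 32.8, 32.7 and 32.1 CPM, whose numbers lie close together.

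Npas2 (ENSMUSG00000026077.15, chr1:39193731-39363236, plus strand), which can stand in for CLOCK as the partner of BMAL1, was barely expressed, with 0 to 58 counts per library. It ranged from 0 to 1.56 CPM at ZT3 with a median of 0.411, and from 0.371 to 2.87 CPM at ZT15 with a median of 1.13. The times overlapped in all 4 combinations. The log2 difference was 1.08 (SE 0.208, adjusted p = 0.000229). Within combinations Npas2 was called in sedentary fl/fl mice (1.38, SE 0.404, adjusted p = 0.0869), and in the others it stood at 0.66 to 1.36 with adjusted p from 0.259 to 0.49. Which combinations were called depended on the setting. The fl/fl call was lost with no filter on low counts (adjusted p = 0.162), with no sex term (adjusted p = 0.103), at an adjusted p under 0.05 and without mice 17 to 32 (1.05, adjusted p = 0.408). Without mice 19, 34 and 35, each far from its group in a member gene, Npas2 was also called in sedentary (1.75, adjusted p = 0.0170) and exercised (1.53, adjusted p = 0.0884) HIF1α KO mice. Mice 34 and 35 held the highest Npas2 levels of the exercised and sedentary HIF1α KO mice at ZT3. Leaving them out, chosen after seeing the data, raises the difference by construction and is no further support. Whether the combinations differ is tested with the interactions.

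Clock (ENSMUSG00000029238.11, chr5:76209868-76304792, minus strand), the histone acetyltransferase partner of BMAL1, had a median of 65.97 CPM at ZT3 (53.01 to 93.05) and of 70.17 CPM at ZT15 (54.49 to 95.16). The ranges lay almost on top of each other. Its log2 difference was 0.03 (SE 0.0529, adjusted p = 0.848), with a 95% confidence interval from −0.08 to 0.13. No combination was called.

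Among the repressors, Nr1d1 (ENSMUSG00000020889.11, chr11:98767932-98775333, minus strand) ranged from 14.03 to 65.8 CPM at ZT3, with a median of 31.4. At ZT15 it ranged from 1.94 to 12.7 CPM, with a median of 5.71. The times did not overlap in any of the 4 combinations or over all 63 mice. The share of all genes that separate the times in this way was not counted. The mean fell from 32.1 ± 11.6 to 6.16 ± 2.60 CPM, a log2 difference of −2.38 (SE 0.137, adjusted p = 3.06e-20) and a fold change of 0.192, and this was rank 1 of 15241 genes by p. Exercised mice gave both extremes of the 4 combinations, at −3.09 (SE 0.276, adjusted p = 8.37e-12) in fl/fl and −2.04 (SE 0.276, adjusted p = 3.54e-06) in HIF1α KO. The lowest group mean was 4.65 ± 1.46 CPM in fl/fl mice exercised at ZT15 and the highest 38.8 ± 7.57 in fl/fl mice exercised at ZT3. Thra, the thyroid hormone receptor α gene on the opposite strand, shares 263 bases with Nr1d1, which is 8.547% of the Nr1d1 exons. It went from 34.04 ± 4.80 to 29.2 ± 4.02 CPM, a log2 difference of −0.22 (SE 0.0522, adjusted p = 0.00428), and since the strand setting of the counting is not given in the sources used here, reads in the shared bases cannot be assigned.

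Nr1d2 (ENSMUSG00000021775.11, chr14:18204054-18239127, minus strand) ranged from 137 to 225 CPM at ZT3, with a median of 168. At ZT15 it ranged from 81.5 to 131 CPM, with a median of 108. Again no ZT15 mouse reached any ZT3 mouse, and the share of all genes that separate so was not counted. The log2 difference was −0.64 (SE 0.0425, adjusted p = 1.31e-18), a fold change of 0.643 and rank 2 of all genes, so the paralogs took the first places by p with unlike sizes. In the combinations it stood between −0.69 and −0.55 and was called in all 4, with rank 1 in exercised HIF1α KO muscle (adjusted p = 1.06e-06).

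Rora (ENSMUSG00000032238.17, chr9:68653786-69388246, plus strand), the activator at the ROR elements, had a median of 213 CPM at ZT3 (160 to 266) and of 199 CPM at ZT15 (168 to 273). The ranges overlapped throughout. The log2 difference was −0.05 (SE 0.0407, adjusted p = 0.524), with an interval from −0.14 to 0.03, and the value furthest from 0 was −0.20 in exercised HIF1α KO muscle (adjusted p = 0.366).

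Taking the combinations singly, time called 1.88% of all genes in the fl/fl sedentary mice, with 4 of 6 members, and 1.18% in the fl/fl exercised mice, with 3 of 6. For HIF1α KO, sedentary mice had 0.479% of all genes called and exercised mice 0.663%, with 3 of 6 members each. Of the markers in 9 cell type lists, Pdgfra of the fibroblast and tendon list was the single one called for time on average, where 8.02% of all genes were.

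**Figure D2:**
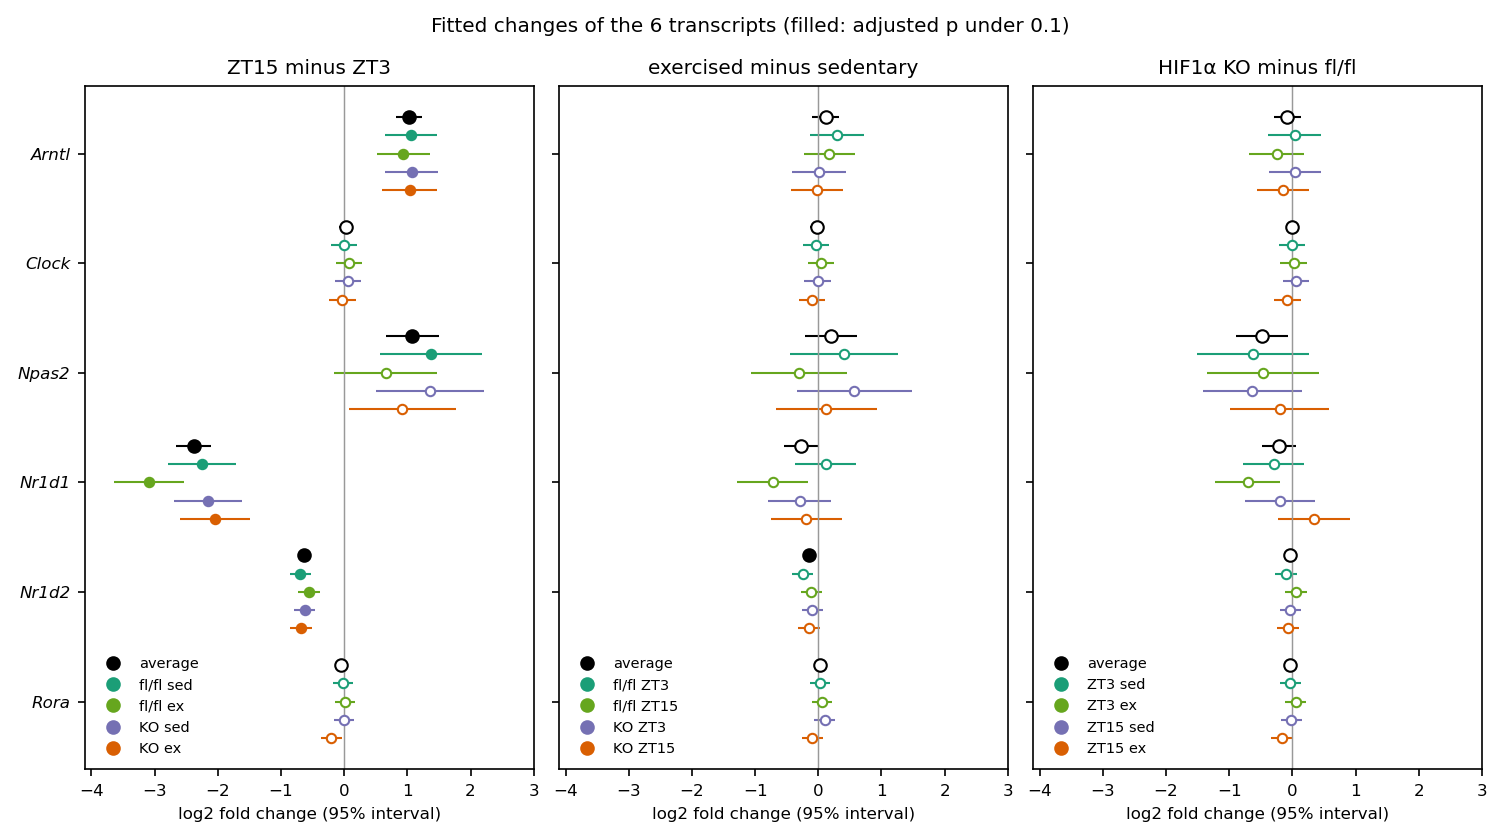
Fitted log2 differences of the 6 members with 95% confidence intervals for the time, exercise and genotype comparisons, on average (black) and in each combination (colours); filled points passed an adjusted p under 0.1 in edgeR. Time differences of Nr1d1 (−2.38), Nr1d2 (−0.64), Arntl (1.02) and Npas2 (1.08) are filled, and in the other panels the average exercise difference of Nr1d2 (−0.15) is the single filled point.

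Taking all 8 groups by mean level, neighbours in the order were separated without overlap at 1 place in Nr1d1, between HIF1α KO mice exercised at ZT3 and sedentary fl/fl mice at ZT15, with 16.3 CPM between the means. Nr1d2 had 1 such place, between exercised fl/fl mice at ZT3 and sedentary fl/fl mice at ZT15, with 42.1 CPM between the means. All other neighbouring groups of all members overlapped. The share of all genes whose groups separate in this way was not counted, so how unusual it is cannot be said. The time of the session took 81.9% of the variance of log2 Nr1d1, 75.7% of Nr1d2, 64.9% of Arntl and 34.6% of Npas2, against 2.47% of Rora and 0.343% of Clock. On a per-length scale (CPM per kb of exon, mean over 63 mice), Nr1d2 was the highest at 25.6, followed by Rora at 15.7, Nr1d1 at 6.16, Clock at 5.07, Arntl at 4.07 and Npas2 at 0.176. These means pool both times, and the order of Nr1d1, Clock and Arntl was not that of every group. Group means of Nr1d1 ran from 1.51 CPM per kb in fl/fl mice exercised at ZT15 to 12.6 in those exercised at ZT3, those of Arntl from 2.50 to 5.86 and those of Clock from 4.93 to 5.27. With the longest transcript as the length, Nr1d2, Rora and Npas2 held their places, and Arntl (7.67), Clock (7.14) and Nr1d1 (6.96) changed order. The longest Arntl transcript (3995 bases) is annotated with 1 exon, those of the other members with 8 to 23. The place of Arntl on this scale rests on that transcript.

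The opposition of Arntl and Nr1d1 was summed up by the log2 ratio of their CPM in each mouse. The ratio was −0.68 ± 0.61 at ZT3 (n = 31), ranging from −1.85 to 0.60, and 2.81 ± 0.62 at ZT15 (n = 32), ranging from 1.75 to 4.09. The times did not overlap in this ratio. They were already apart in Nr1d1 alone and overlapped in Arntl alone, so the ratio is a description and no further support.

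**Figure D3:**
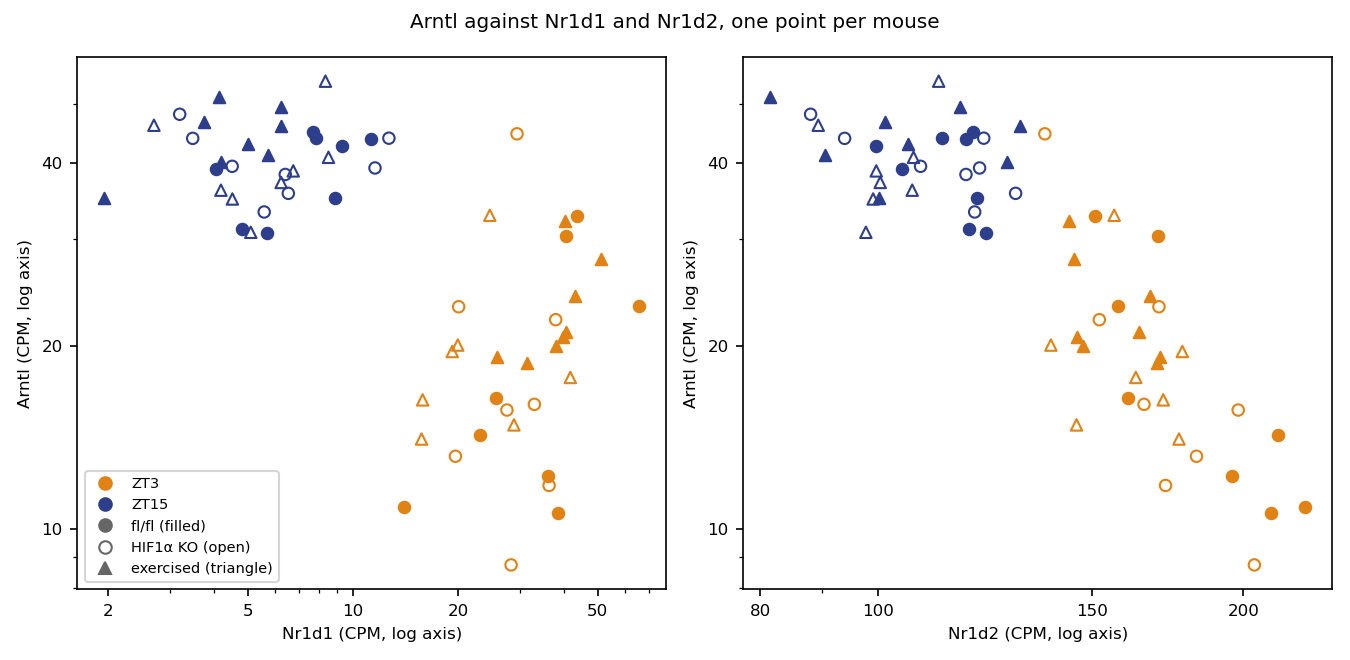
Levels of Arntl against the REV-ERB genes in each of 63 mice (CPM, both axes logarithmic), coloured by session time, with fl/fl filled, HIF1α KO open and exercised mice as triangles. The ZT3 and ZT15 mice do not overlap in either REV-ERB gene. Within groups Arntl fell as Nr1d2 rose (r = −0.541), and with Nr1d1 r was 0.267.

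Across the 63 mice, log2 levels of Arntl and Nr1d2 had a correlation of −0.863, and Arntl and Nr1d1 one of −0.668. The points share the library, its depth and the 2 session times, so correlations were also taken after subtracting group means. Arntl and Nr1d2 then kept −0.541, at −0.732 among the 31 ZT3 mice and −0.234 among the 32 ZT15 mice. Arntl and Nr1d1 went to 0.267 within groups. The paralogs Nr1d1 and Nr1d2 correlated at 0.806 over all mice and at 0.0384 within groups, with −0.514 at ZT3 and 0.488 at ZT15. Arntl and Npas2 correlated at 0.715 overall and 0.519 within groups. Clock and Rora, without a called difference, correlated at 0.375 overall and 0.384 within groups, with 0.575 at ZT3 and 0.183 at ZT15. Differences that go with the mouse number, described below, remain in all values within groups.

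Genes whose level over the 63 mice was most like that of Arntl were Nfil3 (Pearson r = 0.827), Wsb1 (0.736), Slc16a9 (0.721), Npas2 (0.715) and Ypel2 (0.715). Those most like Nr1d1 were Nr1d2 (0.806), the D-box factor gene Dbp (0.804), Pfkfb3 (0.769), Ccl11 (0.755) and Klf11 (0.72). Dbp (0.859), Nr1d1 and Pfkfb3 (0.748) were nearest to Nr1d2. Npas2 was nearest to Arntl, Sh3pxd2b (0.697) and Wsb1 (0.682). Clock was nearest to Btbd7 (0.678), Efr3a (0.669) and Top2b (0.664), and Rora to Rmnd5a (0.687), Ralgapa1 (0.656) and Tnks2 (0.635). Within groups the r of Nfil3 with Arntl was 0.499 and that of Dbp with Nr1d1 0.234, whereas that of Top2b with Clock was 0.76 and that of Rmnd5a with Rora 0.698.

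The second comparison asked what a single run changed in the loop 3 h later. Nr1d2 was lower after exercise and the other 5 members passed no test. In sedentary mice Nr1d2 ranged from 137 to 225 CPM at ZT3, with a median of 171, and from 88.0 to 130 CPM at ZT15, with a median of 119. After exercise it ranged from 139 to 178 CPM at ZT3, with a median of 163, and from 81.5 to 131 CPM at ZT15, with a median of 101. The ranges overlapped at both times. The average log2 difference was −0.15 (SE 0.0424, adjusted p = 0.0437), so 1 of 6 members was called where 2.84% of all genes were. In the single combinations Nr1d2 stood at −0.25 and −0.11 in fl/fl mice at ZT3 and ZT15 and at −0.09 and −0.15 in HIF1α KO mice, none of them called. The average call was lost with no filter on low counts (adjusted p = 0.105) and without mice 17 to 32 (−0.12, adjusted p = 0.14).

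Nr1d1 stood at −0.27 after exercise (SE 0.132, adjusted p = 0.433), with an interval from −0.54 to −0.01. In fl/fl mice at ZT15 it was 7.45 ± 2.44 CPM in sedentary and 4.65 ± 1.46 CPM in exercised mice (n = 8 each), with a log2 difference of −0.72 (adjusted p = 0.481). Arntl stood at 0.12 (adjusted p = 0.776), Npas2 at 0.20, Rora at 0.02 and Clock at −0.02. In single combinations no member was called. Exercise called 0.236% of all genes at ZT3 and 0% at ZT15 when the mice were fl/fl, the latter with 1406 genes at an unadjusted p under 0.05, and 0.131% and 0.0591% when they were HIF1α KO.

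The third comparison asked whether loss of HIF1α in muscle fibers changed the loop. With 8.26% of all genes called for genotype on average, 0 of 6 members were called. Arntl had a median of 31.6 CPM in fl/fl (10.6 to 51.3, n = 32) and of 33.2 CPM in HIF1α KO muscle (8.72 to 54.5, n = 31). The ranges overlapped, and the log2 difference was −0.08 with an interval from −0.29 to 0.13. The intervals were −0.11 to 0.10 for Clock, −0.12 to 0.05 for Nr1d2 and −0.12 to 0.04 for Rora. Npas2 and Nr1d1 stood furthest from 0.

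Npas2 was 0.960 ± 0.642 CPM in fl/fl and 0.724 ± 0.457 in HIF1α KO muscle, a log2 difference of −0.48 (SE 0.208, adjusted p = 0.171) with an interval from −0.90 to −0.07. An alternative left out mice 34 and 35, both HIF1α KO at ZT3, and mouse 19, each far from its group in a member gene. Npas2 was then at −0.78 and called (adjusted p = 0.00956). Mice 34 and 35 held the highest Npas2 levels of their groups, at 1.56 and 1.27 CPM. Leaving them out lowers the HIF1α KO level by construction, so the call is no further support. This alternative was chosen after seeing the data, and Npas2 lay at most at 58 counts in any library.

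Nr1d1 stood at −0.22 for genotype (SE 0.132, adjusted p = 0.360), with an interval from −0.48 to 0.05. Its widest difference was in mice exercised at ZT3, where it ranged from 25.9 to 51.2 CPM in fl/fl (median 40.1, n = 8) and from 15.7 to 41.8 CPM in HIF1α KO muscle (median 19.9, n = 7). The ranges overlapped, and the log2 difference was −0.71 (SE 0.255, adjusted p = 0.162). Fitting these 2 groups alone gave −0.78 (adjusted p = 0.0524), which is a call, and adding a term for blocks of mouse numbers gave −0.51 (adjusted p = 0.576). Of these groups, 0 fl/fl and 3 HIF1α KO mice were numbered 17 to 32, where Nr1d1 was low at ZT3. The share of all genes called for genotype was 0.4% in sedentary and 1.43% in exercised mice at ZT3, and 0.0459% in sedentary and 0.4% in exercised mice at ZT15, and no member was among them.

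The interaction terms asked whether the time difference itself depended on genotype or exercise, and called 0% of all genes in each case. At an unadjusted p under 0.05, 648 genes stood out for time by genotype, 648 for time by exercise, 306 for genotype by exercise and 2196 for all 3 factors together. For Nr1d1 the time by genotype term (HIF1α KO minus fl/fl) was 0.58 (SE 0.265, adjusted p = 0.981), with an interval from 0.04 to 1.11. Its time by exercise term was −0.36 (adjusted p = 0.900), and its 3-factor term was 0.94 (SE 0.529, adjusted p = 0.388) with an interval from −0.12 to 2.00. The time by genotype interval was −0.36 to 0.47 for Arntl and −0.20 to 0.14 for Nr1d2, which bounds how unlike the genotypes were for these members. For Npas2 the time by genotype term was 0.12 (adjusted p = 0.996), with an interval from −0.68 to 0.93. Its time by exercise term was −0.58 (adjusted p = 0.900), with an interval from −1.41 to 0.25.

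Every group held both sexes, 4 females and 4 males each except the HIF1α KO mice exercised at ZT3, with 4 females and 3 males. The time difference of Nr1d1 was larger in females than in males. Nr1d1 in females ranged from 14.03 to 65.8 CPM at ZT3, with a median of 38.01 (n = 16), and from 1.94 to 8.91 CPM at ZT15, with a median of 4.36 (n = 16). In males it ranged from 15.7 to 43.1 CPM at ZT3, with a median of 25.9 (n = 15), and from 4.19 to 12.7 CPM at ZT15, with a median of 6.64 (n = 16). The sexes overlapped at both times, with the female median above the male at ZT3 and below it at ZT15. The difference between the sexes in the log2 time difference was −1.14 (SE 0.220, adjusted p = 0.0474), with an interval from −1.58 to −0.70, and was rank 1 of 15241 genes by p.

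**Figure D4:**
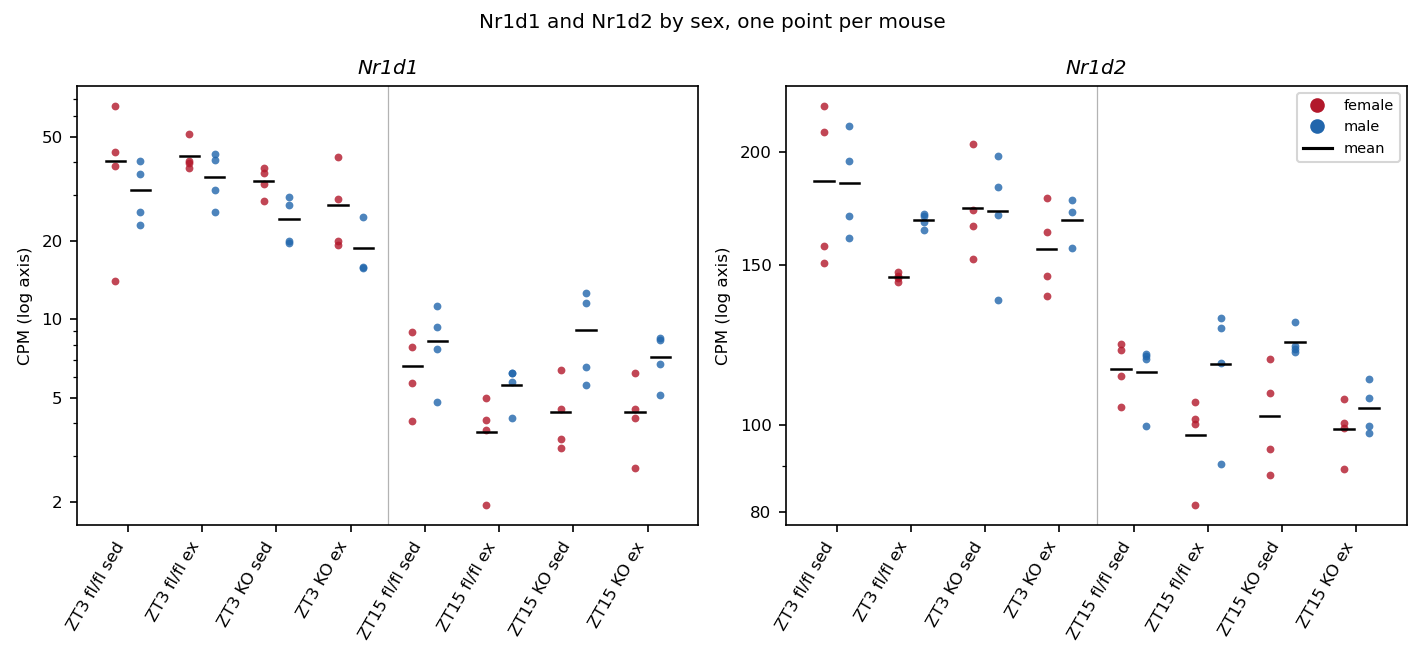
Levels of Nr1d1 and Nr1d2 in each mouse (CPM, logarithmic axis) by group and sex; points are mice and lines the mean of each sex in a group. Over the groups, Nr1d1 in females went from 36.1 ± 12.7 at ZT3 to 4.79 ± 1.84 at ZT15, and males from 28.0 ± 8.88 to 7.53 ± 2.55.

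The term called 3 genes, or 0.0197% of those tested, and 1 of 6 members. The other two, named after their values were seen, were the epithelial genes Dsp and Krt77 (adjusted p = 0.0614 for both). Their counts were 0 in 27 and 49 of the 63 libraries and reached 1202 and 795 in single libraries, so the sizes of their fitted differences are not given. In the simple log2 means, the time difference of Nr1d1 was −2.46 in females and −1.93 in males of the sedentary fl/fl groups. It was −3.54 and −2.62 in exercised fl/fl, −2.95 and −1.46 in sedentary HIF1α KO, and −2.59 and −1.36 in exercised HIF1α KO mice. The female difference was the larger in 4 of 4 combinations, by 0.52 to 1.49 on the log2 scale. The term was called under 8 of 9 alternative settings, and without mice 17 to 32 it was −0.97 (adjusted p = 0.318).

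The other 5 members stood between −0.08 and 0.19 in the same term, with an interval from −0.25 to 0.09 for Nr1d2 and from −0.31 to 0.53 for Arntl. For sex itself, 25.1% of all genes were called and Nr1d2 was the single member among them, lower in females by 0.11 on the log2 scale (SE 0.0424, adjusted p = 0.0534), a call that 4 alternative settings lost. Nr1d2 was 165 ± 26.4 CPM in females and 174 ± 18.4 in males at ZT3, and 103 ± 11.8 and 115 ± 12.2 at ZT15. Some cell type markers also differed with sex. All 5 slow fiber markers, all 5 adipocyte markers and all 4 Schwann cell markers were called higher in females. Of 5 blood markers 3 were lower. Of the 8 muscle fiber genes 1 was higher and 3 were lower, and of 5 fibroblast and tendon markers 2 were higher. No marker of leukocytes, endothelium or satellite cells was called. The summed slow fiber markers had medians of 1074 CPM in females and 463 in males at ZT3, and of 946 and 575 at ZT15. None of the marker lists held a gene called for time by sex. Since that term called 0.0197% of all genes, this cannot show whether the markers share the sex difference. The part of these cells in the Nr1d1 and Nr1d2 results was not tested.

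Levels also moved with the mouse number, which the labels give without saying what it stands for. In 4 blocks of 16 consecutive numbers, a grouping made here, the mean Nr1d1 level at ZT3 was 36.6, 20.5, 33.4 and 38.2 CPM, and that of Arntl was 20.3, 15.3, 28.2 and 17.8 CPM. The share of counts on mitochondrial ribosomal RNA genes had block medians of 6.55%, 1.84%, 2.67% and 5.13%. Within blocks the time difference of Nr1d1 was −2.37, −2.27, −2.38 and −2.54 on the log2 scale. For Nr1d2 it was −0.58, −0.90, −0.39 and −0.65. For Arntl it was 1.01, 1.49, 0.67 and 1.16, and for Npas2 0.97, 1.41, 0.86 and 1.22. Each of the 4 members kept its direction in 4 of 4 blocks, and the third, with the highest Arntl at ZT3, had the smallest Arntl and Nr1d2 differences. Blocks took 34.9% of the total variance of Clock, 12.0% of Npas2, 11.7% of Rora, 6.77% of Arntl, 5.76% of Nr1d1 and 1.97% of Nr1d2. Time took 81.9% of that total in Nr1d1 and 0.343% in Clock, so these shares do not rank the members by how far they moved with block.

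Among the relatives and dimer partners of the members, Arntl2, the BMAL1 paralog, was at 2.36 ± 0.650 CPM (n = 63), the ROR gene Rorb at 0.585 ± 0.317 CPM, and Arnt, the partner of HIF1α, at 39.2 ± 5.35 CPM. Of 7 relatives 1 was called for time, where 8.02% of all genes were. It was Hif1a itself, at 38.9 ± 5.71 CPM at ZT3 and 34.03 ± 4.31 at ZT15, a log2 difference of −0.19 (adjusted p = 0.00827). For exercise (2.84% of all genes called) and for genotype (8.26%) 0 of 7 were called, with Arnt at −0.13 (adjusted p = 0.106) for genotype. For sex, which called 25.1% of all genes, Rorb was the single relative of 7 called, higher in females by 0.68 (adjusted p = 0.00204).

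Of the 12 E-box and D-box outputs and repressors of the wider clock, 2 rose and 5 fell from ZT3 to ZT15. The comparison called 8.02% of all genes. The falls were led by Ciart, a repressor of BMAL1 and CLOCK (−1.72, SE 0.182), and Dbp (−1.42), with Per3 (−1.02), Per1 (−0.49) and Tef (−0.22) after them. The rises were Nfil3, which competes at D-boxes (1.17), and the repressor Cry1 (0.78). The median absolute log2 difference of this list was 0.393, against 0.0817 over all genes. Of 18 tested regulators of the loop's proteins, among them kinases and ubiquitin ligases, 2 rose and 0 fell, beside the same 8.02%. The kinase gene Csnk1e was among those that rose (0.19, adjusted p = 0.0085), and the median absolute difference of the list was 0.0496. Fbxl21, the other member of that list, had too few counts to test.

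After exercise, which called 2.84% of all genes, 1 of 12 outputs fell, the E-box repressor Bhlhe40 (−0.56, adjusted p = 0.0111). The next in size was Cry2 at 0.34 (adjusted p = 0.106). Of the regulators 1 rose, the coactivator Ppargc1a (1.22, adjusted p = 5.05e-12). For genotype, which called 8.26% of all genes, Tef was the single output of 12 called, higher in HIF1α KO muscle by 0.15 (adjusted p = 0.0246). Ciart stood at 0.37 (adjusted p = 0.233), and 0 of 18 regulators were called. For sex, which called 25.1% of all genes, Per3 was higher in females (0.36) and Bhlhe41 (−0.73) and Nfil3 (−0.50) were lower among the 12 outputs. Of the 18 regulators 1 was higher and 7 were lower, led by Nampt (−0.35). For time by sex, 0 of 12 outputs and 0 of 18 regulators were called. That term called 0.0197% of all genes, too few for lists of this length to be judged by it.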

How the data were processed

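RNA was sequenced from gastrocnemius of 64 mice with a stranded, poly-A selecting kit. The authors deposited 1 table of raw counts per gene, whole numbers that were not normalized, which per the labels were made with STAR and featureCounts on mm10. Their versions and the strand setting are not given in the sources used here. Gene names and coordinates came from GENCODE M21 on GRCm38, the same build, which matched 55141 of 55401 genes, and start regions from RefSeq for 6 of 6 members.

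Groups came from the sample labels. The library of mouse 44 (382 counts) was left out, as in the study. Counts were analysed with edgeR 4.0.16 in R 4.3.3 (TMM scaling, filterByExpr with a minimum count of 10, robust quasi-likelihood test) in 1 model of 8 groups plus sex over 63 libraries, with averages and interactions as contrasts. The time by sex term came from the same model with that term added. Adjusted p values are Benjamini-Hochberg over 15241 genes, called under 0.1. Log2 CPM used a prior count of 2. Totals of 2359780 to 40377963 counts limit the precision of Npas2 most. Each library is 1 mouse. The procedure was tested on simulated data.

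The 6 members, the lists and the tests were chosen with earlier results of these data known, the lists by role, and genes most like each member by Pearson correlation. Some genes of the lists are not reported here. Alternatives were DESeq2 1.42.0, other scaling, filters, thresholds and covariates, and left-out libraries.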

Additional observations from a re-analysis of the deposited data

Results flagged for a closer look

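Of 48 tested sets of values (6 members in 8 groups), 3 held a mouse far from the others of its group by Dixon's criterion, which chance passes in about 1 of 20 sets. In HIF1α KO mice exercised at ZT3, mouse 34 had the highest Arntl level, 32.8 CPM. In sedentary HIF1α KO mice at ZT3, mouse 35 had the highest Npas2 level, 1.27 CPM, and in the same group also the highest Arntl (44.6 CPM) and the lowest Nr1d2 (137 CPM). In fl/fl mice exercised at ZT15, mouse 19 had the lowest Nr1d1 level, 1.94 CPM.

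Nr1d1 differed between the sexes in its time difference, by −1.14 on the log2 scale (females minus males). The cause was not tested.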

How the results depend on the processing

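The time differences of Arntl (0.90 to 1.16), Npas2 (0.96 to 1.37), Nr1d1 (−2.40 to −2.34) and Nr1d2 (−0.65 to −0.55), averaged over groups, were called under 10 of 10 alternatives. Of 1320 values of the members under 11 settings, 70 changed sign, 0 of them called and none over 0.306 in size, and 19 calls changed, 15 lost and 4 gained. Leaving out mice 17 to 32 or the 3 mice far from their group was chosen after seeing the data. Of the latter, mice 34 and 35 held the highest Npas2 levels of their groups, so Npas2 calls gained without them are no further support.

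Without mice 17 to 32, the members called fell from 4 to 2 for time in sedentary fl/fl mice, and from 1 to 0 for exercise on average (Nr1d2 −0.12, adjusted p = 0.14), for sex and for time by sex. Without them Clock stood at −0.0032 for time, and the time by genotype terms of Arntl (−0.0613), Clock (0.0458), Npas2 (−0.0540) and Nr1d2 (0.0101) turned sign. Without them Arntl lost its time call in 3 of 4 combinations, all but exercised fl/fl, and with only the compared groups fitted it lost that in sedentary HIF1α KO mice (adjusted p = 0.145). With no filter on low counts, Nr1d2 stood at −0.15 for exercise (adjusted p = 0.105), which left 0 members called there and for sex. The sex call of Nr1d2 was also lost, to 0 members, at an adjusted p under 0.05 and with all 64 libraries. The genotype count went from 0 to 1 in mice exercised at ZT3 with only those groups fitted (Nr1d1), and from 0 to 1 on average without the 3 far mice (Npas2 −0.78, adjusted p = 0.00956). Without those 3, the Clock time by genotype term was 0.0170, and with number blocks those of Clock (0.0933), Npas2 (−0.109) and Nr1d2 (0.0142) turned sign. The causes were not tested. No paired analysis was possible because each mouse number belongs to 1 mouse and groups share none. The depth of Npas2, at most 58 counts, limits what can be said of it.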
